A study of Mus musculus with 9 samples.

Results

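The transcriptome described here is that of sorted neural crest cells from wild-type mouse embryos that were cultured with phosphate-buffered saline (PBS), the vehicle, and received no endothelin-1. It is the reference state of a study of 9 RNA sequencing samples, of which 3 belonged to the PBS group. Genes were chosen by a rule that used the PBS column alone: protein-coding named genes given as FPKM (fragments per kilobase of transcript, scaled to sequencing depth) were ranked by level, which left 12505 of the 33495 genes in the table. The level of a gene in this column is therefore a description and carries no test. The authors' deposited table held 1 FPKM value for the whole group, so no value has an error between samples.

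All 3 groups were C57BL/6 embryos at embryonic day 9.5. Embryos lost the head above the first branchial arch and the tail below the hindlimb level, rested for 1 h, and were then kept for 12 to 15 h as explants before crest cells were sorted from them. The PBS group was wild type, a second group of 3 was wild type with 10 µM endothelin-1 (ET-1), and the remaining 3 samples were a neural crest conditional mutant of Mef2c with the same 10 µM ET-1. The Cre driver, the label used for sorting and the number of embryos per sample were not stated in the sources used here. There was no mutant group with PBS.

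The neural crest forms at the dorsal edge of the neural tube, where the roof plate secretes WNT and BMP proteins. Crest cells leave the neural epithelium, migrate, and give rise to sensory, autonomic and enteric neurons, glia, pigment cells and, in the head and the outflow tract of the heart, connective tissue and smooth muscle. AP-2, SOXE, PAX3, FOXD3 and SNAIL family factors specify the crest, and endothelin receptors guide its migrating and pigment lineages.

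The PBS group was estimated to hold 21507320 pooled reads, from the FPKM of genes with a single exon. The estimates were 19801231 with ET-1 in wild type and 46930105 in the mutant. At the PBS depth the 95% counting interval of a gene at 1 FPKM spanned a median of 46.1% of its level, and at 10 FPKM 11.9%. These intervals apply the exact Poisson formula to reads recovered from FPKM and cover counting error only. Recovered PBS reads summed to 135% of the estimated depth, so the intervals are approximate. In 15639 genes the wild-type values were whole numbers with a p-value of exactly 1, and these are read here as raw reads of genes too low to be given as FPKM. The largest such number with PBS was 17. Of 17274 protein-coding named genes, 4769 were given in this way and 3553 of them had 0 reads with PBS. The median protein-coding named gene stood at 7.44 FPKM among those with FPKM and at 3.19 FPKM when whole-number genes were set to 0. At least 1 FPKM was reached by 10532 genes and at least 10 FPKM by 5158, while 320 stood at 100 FPKM or more.

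**Figure D1:**
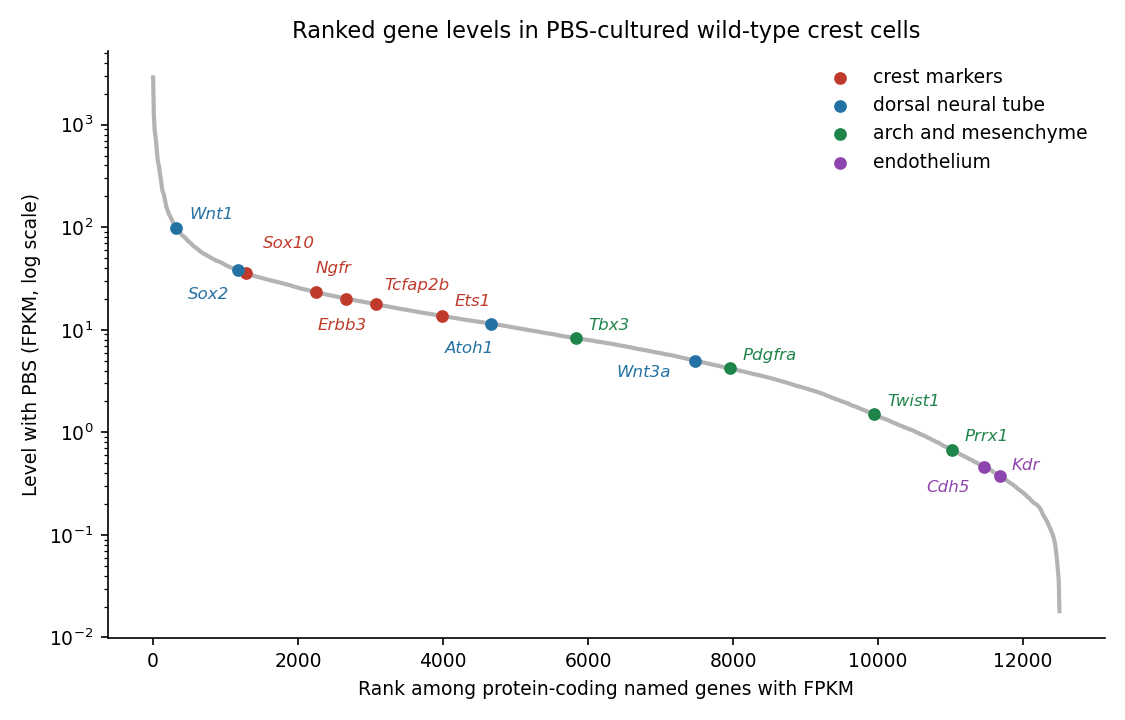
Level with PBS (FPKM, log scale) against rank for the 12505 protein-coding named genes with FPKM, with coloured points for named genes. The 5 crest markers lie between ranks 1288 and 3984, Wnt1 lies above them at rank 322, and Twist1, Prrx1, Cdh5 and Kdr lie far down the curve.

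All 5 markers used to check for crest were expressed. They do not identify the cells by themselves, since several genes of the dorsal neural tube, given below, stood as high or higher. Sox10, the SOXE factor of crest progenitors and glia on chromosome 15 (78985513 to 78994916, mm9), stood at 35.7 FPKM (95% counting interval 34.2 to 37.3, from 1951 reads), rank 1288. Ngfr, the low-affinity neurotrophin receptor (chromosome 11, 95430132 to 95449049), stood at 23.4 FPKM (22.3 to 24.5). Erbb3, the neuregulin receptor of glial precursors (chromosome 10, 128004579 to 128026708), stood at 20.1 FPKM (19.3 to 20.9). All 3 were above the 75% quantile of ranked genes, which was 17.4 FPKM. Tcfap2b, an AP-2 factor (chromosome 1, 19198995 to 19228815), lay close to that quantile at 17.7 FPKM (17.0 to 18.4), and Ets1, an ETS factor of delaminating crest (chromosome 9, 32443806 to 32565405), stood at 13.6 FPKM (13.1 to 14.2). The 5 counting intervals did not overlap, so Sox10, Ngfr, Erbb3, Tcfap2b and Ets1 keep this order as far as counting error goes. With ET-1 the levels were 61.0, 39.0, 31.7, 26.4 and 31.7 FPKM in the same order of genes, and in the mutant with ET-1 they were 70.9, 36.8, 29.2, 40.0 and 24.1 FPKM.

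All 22 listed crest transcription factors had at least 1 FPKM, as did 10532 of all 17274 protein-coding named genes. At a detection level of 2 FPKM the list's count was 20. At least 10 FPKM was reached by 13 of the 22, and by 5158 of all. The list's median was 16.1 FPKM against 3.19 FPKM over all protein-coding named genes. The highest were Id3 at 90.6 FPKM, a dominant-negative partner of basic helix-loop-helix factors, Zic1 at 40.4 FPKM, a dorsal neural and crest zinc-finger factor, and Tcfap2a at 37.5 FPKM, the AP-2 factor that opens the crest programme. Pax3, a paired-box factor of the dorsal neural tube and crest, followed Sox10 at 34.8 FPKM. Foxd3, the forkhead factor of crest progenitors, stood at 14.5 FPKM. The factors of the epithelial to mesenchymal transition lay in the lower part of the list. Snai1 stood at 4.73 FPKM, Twist1 at 1.50 FPKM (1.12 to 1.96) and Snai2 at 1.44 FPKM, whereas Zeb2, which also represses E-cadherin, stood at 20.9 FPKM.

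Within families, 1 or a few paralogues carried most of the level. Sox10 exceeded Sox9 by a ratio of 1.64 (counting interval 1.54 to 1.74), and Sox8 was lowest of the SOXE genes at 4.93 FPKM. Tcfap2a exceeded Tcfap2b by 2.12 (2.02 to 2.22), and Pax3 exceeded its paralogue Pax7 by 3.59 (3.37 to 3.84). The ratio of Sox10 to Sox9 was 2.74 with ET-1 and 2.76 in the mutant, and that of Tcfap2a to Tcfap2b was 1.74 and 1.20. These ratios compare levels per length, and ratios between groups were not tested.

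The surface and effector genes of crest cells were led by Crabp1, a retinoic acid binding protein, at 392 FPKM (383 to 402), rank 80 of all ranked genes. Ednrb, the endothelin B receptor, followed at 62.7 FPKM (61.1 to 64.3). Next came Nrp2, a semaphorin co-receptor, at 45.9 FPKM, and Ngfr. All 14 members had at least 1 FPKM and 9 had at least 10 FPKM, with a median of 18.3 FPKM. The lowest were Plxnd1, the semaphorin 3E receptor, at 2.54 FPKM, Ednra at 3.45 FPKM and Pdgfra, the platelet-derived growth factor receptor of crest mesenchyme, at 4.22 FPKM.

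Several genes of the dorsal neural tube, Wnt1, Sox2, Olig3 and Msx3 among them, were at levels within or above the range of the 5 crest markers, and others, such as Atoh1 and Lmx1a, were below it. Wnt1, the roof plate WNT ligand, stood at 99.3 FPKM (96.6 to 102) in the PBS group and at 101 and 109 FPKM in the ET-1 and mutant groups. It was the highest of 19 WNT ligand genes, 10.4 times Wnt4 (9.70 to 11.2). The Cre driver and the sorting label were not stated, so Wnt1 reads could not be checked against a transgene. Sox2, the neural progenitor factor that is also expressed in glial precursors, stood at 38.7 FPKM and exceeded its paralogue Sox3 by 20.7 (16.6 to 26.1). Olig3, a dorsal progenitor factor, stood at 28.0 FPKM, and Msx3, whose expression is known from the dorsal neural tube, at 29.8 FPKM. Gdf7, a BMP ligand of the roof plate, stood at 14.2 FPKM, Atoh1, the factor of the dorsalmost interneuron progenitors, at 11.5 FPKM and Lmx1a, a roof plate homeobox factor, at 7.30 FPKM. In a list of 20 roof plate and dorsal genes drawn up after the values were seen, 19 had at least 1 FPKM and 13 at least 10 FPKM, with a median of 19.4 FPKM. That list shares Pax3, Zic1, Msx1 and others with the crest list.

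The listed genes of the ventral neural tube were low: 11 of 15 were not given as FPKM. Shh, the floor plate morphogen, Foxa2, the floor plate forkhead factor, Nkx2-2 and Olig2, factors of ventral progenitors, had 0 reads. A count of 0, read as at most 3 reads, allows up to 0.0490 FPKM for Shh and 0.0551 FPKM for Olig2. These 15 genes were also listed after the values were seen. Of them, 7 had 0 reads and 2 had at least 1 FPKM. The 2 were Spon1, a floor plate matrix protein, at 8.77 FPKM and Ntn1, the axon guidance ligand netrin-1, at 2.69 FPKM. The list of 22 neural tube progenitor genes also held genes in neither the dorsal nor the ventral list. Besides Sox2, Hes5 stood at 18.9, Pax6 at 13.3, Sox21 at 6.96, Irx5 at 6.82, Irx3 at 4.75 and Sox3 at 1.87 FPKM. Sox1 had 1 read. The dorsal and ventral contrast therefore covers the listed genes only. Markers of neurons born in the spinal cord had a median of 0.261 FPKM over 19 genes, the highest being Lhx1 at 7.28 FPKM. Brain region factors were low: 6 of 12, among them Otx2 and Six3, had 0 reads, and Gbx2 at 6.30 FPKM and Pax2 at 3.31 FPKM were the 2 members at or above 1 FPKM. The summed level of the 22 neural tube progenitor genes came to 257, 262 and 323 FPKM in the PBS, ET-1 and mutant groups. The higher mutant sum was not shared by all members. In the same order of groups, Hes5 stood at 18.9, 14.1 and 45.4 FPKM and Olig3 at 28.0, 23.9 and 43.2 FPKM. Sox2 stood at 38.7, 40.3 and 37.0 FPKM and Pax6 at 13.3, 10.1 and 11.7 FPKM. Whether these reads came from sorted crest cells or from neural tube cells in the sort was not tested. In bulk samples, fewer cells of a type and less RNA per cell cannot be told apart.

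The promoters of this dorsal and ventral contrast are shown for 2 highly expressed genes, Wnt1 and Zic1, beside 2 genes with 0 reads, Olig2 and the pigment enzyme gene Tyr. Sequences are from RefSeq (GRCm38.p6), 250 bases before to 50 bases after the gene's start, on the gene's strand, with each CG dinucleotide in capitals. They were picked after the values were seen, to show a CpG-rich and a CpG-free promoter among genes with 0 reads. They lie at chr15:98789607-98789906 (plus strand) for Wnt1, chr9:91365719-91366018 (minus) for Zic1, chr16:91225300-91225599 (plus) for Olig2 and chr7:87493463-87493762 (minus) for Tyr.
Wnt1: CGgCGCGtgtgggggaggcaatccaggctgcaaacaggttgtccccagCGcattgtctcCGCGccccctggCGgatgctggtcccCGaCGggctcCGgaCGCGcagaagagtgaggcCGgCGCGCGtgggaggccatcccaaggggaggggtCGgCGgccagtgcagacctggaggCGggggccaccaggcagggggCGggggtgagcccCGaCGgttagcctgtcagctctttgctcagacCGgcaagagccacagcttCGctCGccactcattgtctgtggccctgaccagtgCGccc
Zic1: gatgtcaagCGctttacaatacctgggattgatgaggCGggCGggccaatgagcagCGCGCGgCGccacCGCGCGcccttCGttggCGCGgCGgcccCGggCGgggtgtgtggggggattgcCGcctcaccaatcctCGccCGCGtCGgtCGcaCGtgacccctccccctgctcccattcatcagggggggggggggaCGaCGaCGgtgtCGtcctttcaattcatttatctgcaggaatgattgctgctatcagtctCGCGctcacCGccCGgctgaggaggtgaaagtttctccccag
Olig2: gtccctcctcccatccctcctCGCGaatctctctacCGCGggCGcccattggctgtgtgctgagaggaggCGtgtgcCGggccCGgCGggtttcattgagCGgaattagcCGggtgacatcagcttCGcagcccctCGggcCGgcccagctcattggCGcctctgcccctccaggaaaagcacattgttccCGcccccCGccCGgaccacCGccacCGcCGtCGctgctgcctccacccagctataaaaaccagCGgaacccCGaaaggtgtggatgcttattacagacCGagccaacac
Tyr: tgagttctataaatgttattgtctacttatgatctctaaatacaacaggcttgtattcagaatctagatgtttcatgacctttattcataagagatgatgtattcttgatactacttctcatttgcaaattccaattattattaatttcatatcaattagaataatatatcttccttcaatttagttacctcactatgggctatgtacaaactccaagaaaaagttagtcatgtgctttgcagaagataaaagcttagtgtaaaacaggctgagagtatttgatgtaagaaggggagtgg

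Wnt1 had 26 CG dinucleotides in these 300 bases, Zic1 had 31, Olig2 had 25 and Tyr had 0. Over 11158 genes with a single promoter entry, the median ratio of observed to expected CG was 0.172 for 2584 genes with 0 reads, 0.489 for 1181 genes under 1 FPKM, 0.750 for 3346 genes from 1 to under 10 FPKM, 0.840 for 3093 genes from 10 to under 100 FPKM and 0.903 for 177 genes at 100 FPKM or more. The hexamer TATAAA, on either strand, was in 28.5% of promoters with 0 reads, in 5.85% from 10 to under 100 FPKM, in 11.3% at 100 FPKM or more and in 12.6% of all. GGGCGG, on either strand and itself holding a CG, was in 13.7% of those with 0 reads, in 71.3% from 10 to under 100 FPKM, in 71.8% at 100 FPKM or more and in 52.0% of all. Transcription factor genes did not follow the gradient to its low end. The 63 not given as FPKM, with 0 reads or more, had a median ratio of 0.685. That was near the 0.799 of the 160 at or above 1 FPKM. Over all genes not given as FPKM, the median was 0.172 at 0 reads and 0.313 for the 777 genes with 1 or more reads. A match of these letters is a description of the window and not a binding site.

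Hox genes, which record position along the trunk, were expressed from group 1 to group 10 and ended there. Summed over clusters, the levels with PBS were 20.9 FPKM for group 1, 44.0 for group 2, 69.4 for group 3, 133 for group 4, 93.1 for group 5, 149 for group 6, 44.9 for group 7, 63.2 for group 8, 158 for group 9 and 9.60 for group 10. No gene of groups 11 to 13 was given as FPKM, and these groups held 5, 0 and 1 reads in all. Group 9 was thus the highest sum and group 10 the lowest with any FPKM. These sums are over unequal numbers of genes, from 2 in groups 2 and 7 to 4 in groups 4 and 9. Hoxa2, Hoxb2, Hoxa3, Hoxb3, Hoxd3, Hoxa4 and Hoxa7 share over 10% of their sequence with other annotated genes, Hoxd3 60.3% and Hoxb3 51.4%. Sums that include them are therefore uncertain, and groups 2 and 3 consist of such genes alone. Hoxb9 alone stood at 108 FPKM (105 to 111), ahead of Hoxc4 at 64.2 FPKM and Hoxc6 at 61.2 FPKM, whose intervals overlap. Summed by cluster, the levels were 185 FPKM for A, 306 for B, 200 for C and 93.9 for D, and the highest D gene was Hoxd4 at 35.5 FPKM. For group 9 the sums in the ET-1 and mutant groups were 147 and 159 FPKM, and for group 5 they were 83.6 and 67.0 FPKM.

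**Figure D2:**
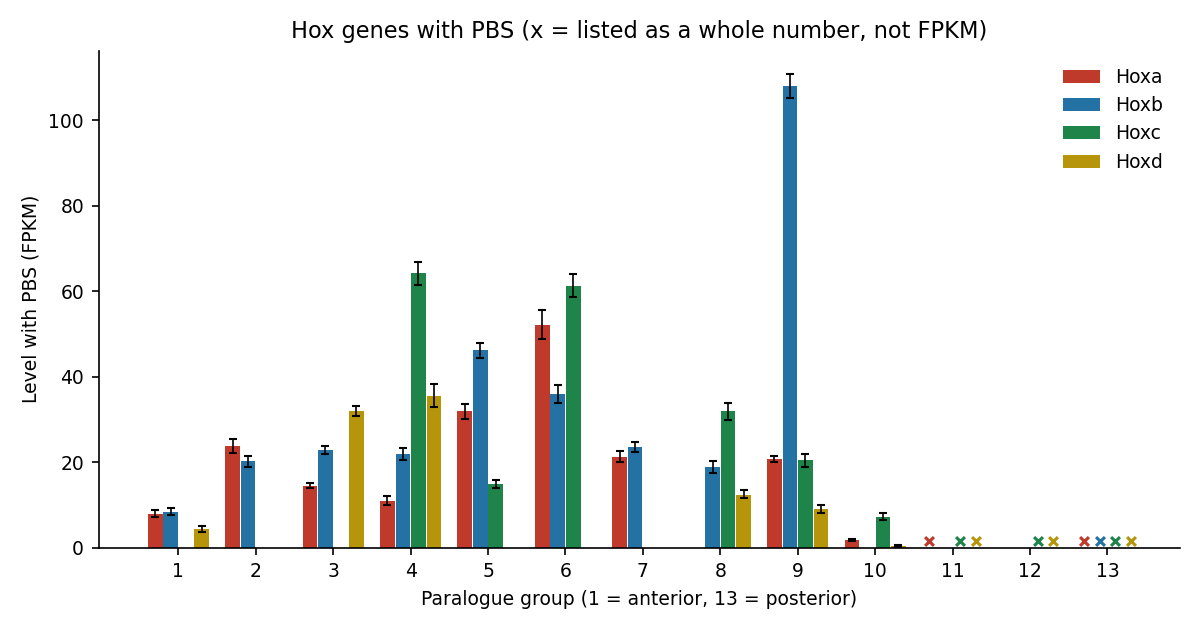
Levels with PBS of the Hox genes by paralogue group (FPKM, axis from 0), each bar a gene of cluster A, B, C or D with its 95% counting interval, and crosses for genes not given as FPKM. Hoxb9 is the tallest bar at 108 FPKM, group 10 reaches at most 7.31 FPKM, and groups 11 to 13 have crosses alone.

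Among genes matched to transcription factor symbols, 291 of 457 had at least 1 FPKM, and together they held 1.97% of the summed FPKM of protein-coding named genes. The highest was Ybx1, a cold-shock protein that binds RNA and DNA, at 292 FPKM (287 to 296), of whose sequence words 15.4% also occur in other genes. Atf4, the effector of the integrated stress response, stood at 118 FPKM (115 to 121), and Sox11, a SOXC factor of neural progenitors and young neurons, at 112 FPKM (110 to 114), an interval that overlaps with that of Hoxb9. Then came Id3, Tcf12 at 83.6 FPKM, an E protein that pairs with proneural factors, and Id2 at 82.7 FPKM, another ID inhibitor. The intervals of Tcf12 and Id2 overlap. Below them came Tcf25 at 66.9 FPKM, Egr1 at 66.5 FPKM, Hoxc4 and Hoxc6. The interval of Tcf25 overlaps with that of Egr1, Egr1 with Hoxc4, and Hoxc4 with Hoxc6. Egr1 is an immediate early gene. The values of Egr1 in the ET-1 and mutant groups were 90.7 and 183 FPKM, and it was not among the genes called with ET-1.

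Receptors had a median of 4.89 FPKM over 142 genes, of which 110 had at least 1 FPKM. Gpc3, a heparan sulphate co-receptor on the cell surface, was highest at 82.5 FPKM (80.1 to 84.8). Fzd3, a WNT and planar polarity receptor, followed at 69.8 FPKM and Ednrb came after it. Neo1, a receptor for netrins and repulsive guidance molecules, stood at 50.2 FPKM, above Nrp2. Igf1r, the insulin-like growth factor receptor, stood at 44.7 FPKM and Dag1, the laminin receptor dystroglycan, at 42.6 FPKM. The next 3, Bmpr1a at 38.8 FPKM, a BMP receptor, Fzd7 at 38.5 FPKM and Fgfr2 at 37.9 FPKM, a fibroblast growth factor receptor, had overlapping intervals. Paralogues were unequal here too. Fgfr2 exceeded Fgfr1 by 2.29 (2.20 to 2.37), Nrp2 exceeded Nrp1 by 2.40 (2.32 to 2.48) and Ngfr exceeded Ntrk3, the highest of the trk receptors, by 5.95 (5.60 to 6.33). Notch1 at 21.2 FPKM and Notch2 at 20.5 FPKM did not differ beyond counting error, with a ratio of 1.04 (0.997 to 1.08).

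Ligands had a lower median of 0.783 FPKM over 200 genes, and 94 had at least 1 FPKM. Mdk, the heparin-binding growth factor midkine, was highest at 223 FPKM (217 to 228), and exceeded its relative Ptn, pleiotrophin, by 2.48 (2.40 to 2.57). Wnt1 came next, followed by Ptn at 89.6 FPKM. Slit2, a repellent of axons and crest cells, stood at 71.8 FPKM, 3.38 times Slit1 (3.24 to 3.52). Sfrp2, a secreted WNT antagonist, stood at 44.1 FPKM and Efnb2, a membrane ligand of EPH receptors, at 42.9 FPKM, with overlapping intervals. Vegfa, the endothelial growth factor, stood at 40.3 FPKM. Igf2, an embryonic growth factor, stood at 36.8 FPKM, but 62.1% of its sequence words occur in other annotated genes, so its level is uncertain. Cyr61, a matricellular protein, at 33.8 FPKM and Sfrp1 at 26.6 FPKM completed the 10 highest.

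Of 40 cadherin and protocadherin genes, 20 had at least 1 FPKM. Cdh2, N-cadherin, stood at 37.7 FPKM (36.8 to 38.7) and overlapped with Celsr2, a planar polarity cadherin, at 36.4 FPKM. Cdh6, a cadherin of the neural fold and early crest, stood at 21.3 FPKM, followed by Pcdh18 at 17.7 FPKM and Cdh11, a cadherin of mesenchyme, at 17.4 FPKM, whose intervals overlap. Cdh1, E-cadherin, stood at 0.366 FPKM. Among integrins, Itgb1, the common beta chain, stood at 83.0 FPKM, Itga6, a laminin-binding alpha chain, at 18.1 FPKM and Itga5, the fibronectin-binding one, at 10.2 FPKM, whose interval overlaps with that of Itga9 at 9.42 FPKM. Itgav stood at 8.42 FPKM.

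**Figure D3:**
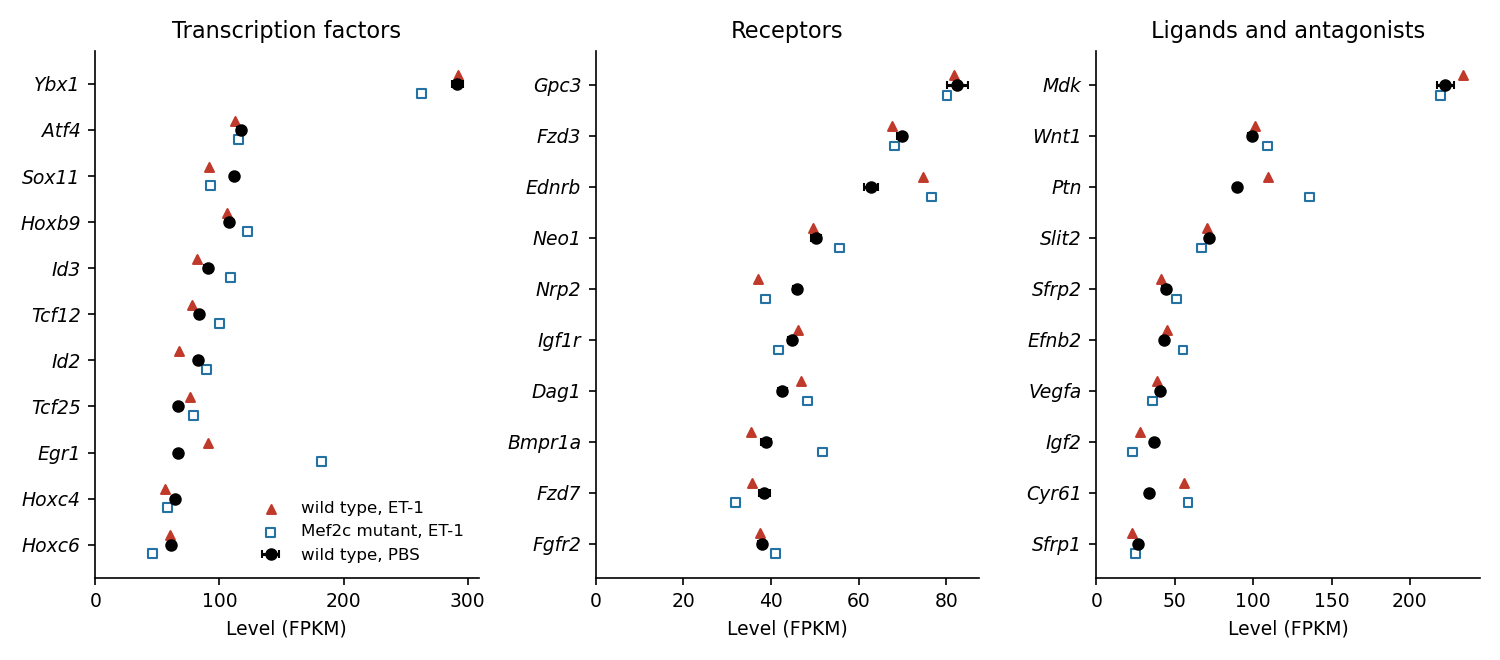
High-ranking transcription factors, receptors and ligands by PBS level (FPKM, axes from 0), with circles and 95% counting intervals for PBS, triangles for ET-1 and squares for the Mef2c mutant with ET-1. Ybx1 at 292 FPKM and Mdk at 223 FPKM stand apart from the rest of their classes, while receptors fall off gradually from Gpc3 at 82.5 FPKM.

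Neurogenic genes of the sensory lineage were well represented. Of 18 genes, 16 had at least 1 FPKM and 8 at least 10 FPKM, with a median of 8.96 FPKM. Tubb3, neuronal beta-tubulin, stood at 46.1 FPKM. Neurog1 at 27.5 FPKM and Neurog2 at 25.8 FPKM, the proneural factors of sensory neurons, did not differ beyond counting error (ratio 1.07, 0.955 to 1.19). Pou4f1, the homeobox factor of sensory ganglia, stood at 18.2 FPKM. Receptors of maturing sensory neurons were lower, with Ntrk2 at 3.45 FPKM and Ntrk3 at 3.93 FPKM, and Runx3 was listed with 2 reads. Proneural genes are shared with the neural tube, so this list does not separate ganglia from spinal cord.

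Autonomic and enteric genes were lower, at a median of 1.03 FPKM over 13 genes. Gfra1, the GDNF co-receptor, stood at 8.81 FPKM, Insm1, a neuroendocrine zinc-finger factor, at 6.59 FPKM and Ret, the GDNF receptor kinase, at 3.83 FPKM. Hand2, an autonomic as well as an arch factor, was listed with 5 reads. Th and Dbh, enzymes of noradrenaline synthesis, stood at 0.997 and 0.121 FPKM.

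Glial genes included both high and near-absent members. Fabp7, a fatty acid binding protein of radial glia and glial precursors, stood at 64.0 FPKM, while Sox2 and Erbb3 had the levels already given. Gap43, a growth cone protein, stood at 11.0 FPKM. Gfap, a marker of mature glia, stood at 0.0637 FPKM. The median over the 12 glial genes was 2.74 FPKM, below the 3.19 FPKM of all protein-coding named genes.

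Pigment lineage genes were at or near 0 apart from receptors that other crest cells also carry. Ednrb and Kit, the receptor kinase of melanoblasts, at 12.9 FPKM were the 2 of 9 members at or above 1 FPKM. Mitf, the factor that defines melanoblasts, stood at 0.941 FPKM, and Tyr, Tyrp1 and Slc45a2, genes of pigment synthesis, had 0 reads, which for Tyr allows up to 0.0196 FPKM.

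Factors of arch and outflow crest were low. Of 23 pharyngeal arch and outflow factors, 8 had at least 1 FPKM and 3 had at least 10 FPKM, with a median of 0.653 FPKM. The highest were Meis2 at 20.8 FPKM, a Hox cofactor, the nuclear receptors Nr2f2 at 18.4 FPKM and Nr2f1 at 12.2 FPKM, and Tbx3, a T-box factor, at 8.28 FPKM. All 4 are also expressed outside the arches. Dlx2, the distal-less factor of arch crest, stood at 5.76 FPKM, whereas Dlx5 had 1 read and Dlx6 had 0 reads. Hand2, the factor of the ventral arch and heart, had 5 reads, Hand1 stood at 0.653 FPKM, Prrx1, a mesenchyme homeobox factor, at 0.675 FPKM, and Gsc and Barx1, factors of the arch skeleton, had 0 reads. Rescaling FPKM to a common total over protein-coding named genes moved this list's count from 8 to 15 members at or above 1.

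Among mesenchyme and matrix genes, 15 of 19 had at least 1 FPKM and 5 had at least 10 FPKM. Vim, the intermediate filament vimentin, stood at 227 FPKM (rank 129), Fn1, fibronectin, at 44.7 FPKM, Vcan, the proteoglycan versican, at 32.2 FPKM and Col2a1, type II collagen, at 25.4 FPKM. Collagen genes of connective tissue were lower, with Col1a1 at 2.65 FPKM and Col3a1 at 1.96 FPKM. The median over 19 members was 2.65 FPKM. Among 11 smooth muscle genes, Tpm1, a tropomyosin also used outside muscle, led at 16.2 FPKM, then Tpm2 at 6.60 FPKM, Smtn, smoothelin, at 6.25 FPKM and Myl9, a myosin light chain, at 5.48 FPKM. Acta2, smooth muscle actin, stood at 1.85 FPKM and Myocd, the cofactor that drives the smooth muscle programme, at 0.159 FPKM.

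**Figure D4:**
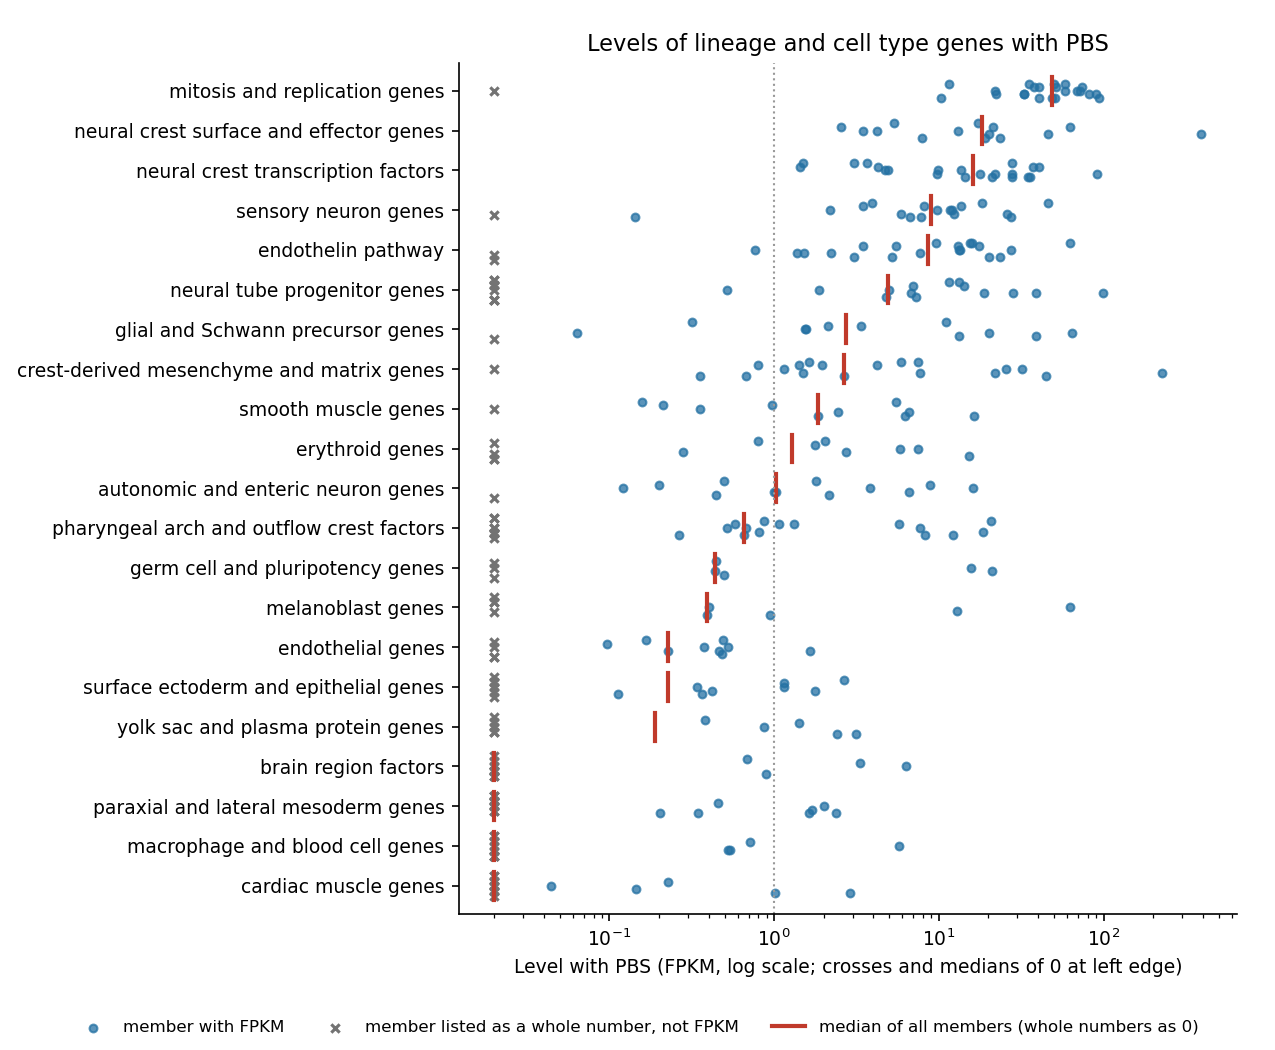
Levels with PBS of the members of 21 gene lists (FPKM, log scale), with crosses at the left edge for members not given as FPKM and a red line at the median of all members. Mitosis, crest surface and crest transcription factor lists have medians of 48.5, 18.3 and 16.1 FPKM, and brain region, mesoderm, macrophage and cardiac lists have medians of 0.

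Markers of blood, vessel, heart, epithelium, mesoderm and yolk sac were low, and erythroid genes had the highest sum among them. Of 12 erythroid genes, 6 had at least 1 FPKM, and the list summed to 36.1, 34.3 and 19.1 FPKM in the PBS, ET-1 and mutant groups. Hbb-y and Hba-x, embryonic globins, stood at 15.2 and 7.44 FPKM, and Alas2, the erythroid haem enzyme, stood at 5.85 FPKM, while Gata1, the defining erythroid factor, and Hbb-b1 had 0 reads. Of 13 endothelial genes, Egfl7 at 1.65 FPKM was the only one at or above 1 FPKM. Pecam1 stood at 0.483 FPKM, Cdh5 at 0.464 FPKM and Kdr at 0.377 FPKM, and the list summed to 4.47, 3.95 and 3.85 FPKM in the 3 groups in the order PBS, ET-1 and mutant. Of 12 macrophage genes, Cd68, a lysosomal protein, was the only one at or above 1 FPKM, at 5.70 FPKM, and 4 had 0 reads, among them Emr1 and C1qa. The macrophage list summed to 7.47, 7.82 and 13.7 FPKM. Cd68 alone stood at 5.70, 5.54 and 12.4 FPKM in these groups. No other macrophage member given as FPKM reached 1 FPKM in any group.

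Heart, surface and mesoderm genes stayed near the detection level. Of 13 cardiac muscle genes, Actc1 at 2.87 FPKM and Tnni3 at 1.01 FPKM reached 1 FPKM, and Nkx2-5 and Myl2 had 0 reads. The cardiac list summed to 4.30, 6.68 and 7.32 FPKM. Of 14 epithelial genes, 4 reached 1 FPKM (Krt18 at 2.66, Epcam at 1.76, Krt8 at 1.15 and Grhl3 at 1.14 FPKM), Krt5, Krt14 and Wnt6 had 0 reads, and the list summed to 7.95, 6.18 and 4.88 FPKM. Of 16 mesoderm genes, 4 reached 1 FPKM (Uncx at 2.38, Meox1 at 2.01, Tcf15 at 1.71 and Tbx6 at 1.63 FPKM), Myod1, T and Tbx1 had 0 reads, and the list summed to 8.73, 12.0 and 13.5 FPKM. Of 10 yolk sac and plasma protein genes, Afp at 3.12 FPKM, Apom at 2.39 FPKM and Rbp4 at 1.42 FPKM reached 1 FPKM and 5 had 0 reads, with sums of 8.18, 6.41 and 3.69 FPKM.

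Of 23 mitosis and replication genes, 22 had at least 10 FPKM, with a median of 48.5 FPKM. Mki67, the proliferation antigen, stood at 93.5 FPKM, Top2a, topoisomerase II alpha, at 90.1 FPKM, Cdkn1c, a cell cycle inhibitor, at 81.0 FPKM and Rrm2, a subunit of ribonucleotide reductase, at 73.8 FPKM. Cdkn2a had 0 reads.

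In the endothelin pathway the B receptor was high and the ligand genes were under 1 FPKM. Edn1, the gene of the peptide that the treatment supplied, and Edn2 had 0 reads with PBS, which for Edn1 allows up to 0.0652 FPKM, and Edn3, the ligand that acts through the B receptor, stood at 0.767 FPKM (0.584 to 0.989). Ednrb exceeded Ednra, the A receptor of arch crest, by 18.2 (16.4 to 20.1), and by 19.4 with ET-1 and 15.7 in the mutant. Gnaq, the G protein alpha subunit downstream of the receptors, stood at 27.4 FPKM, Gna13 at 23.4 FPKM and Ece1, the enzyme that cleaves the precursor to the active peptide, at 20.2 FPKM. Of the MEF2 factors, Mef2a stood at 15.4 FPKM and Mef2d at 13.3 FPKM, and Mef2c was below both at 7.71 FPKM (7.41 to 8.01), rank 6110. Hdac4, a class IIa deacetylase that binds MEF2 factors, stood at 17.5 FPKM, with 21.6% of its words in other genes. In the ET-1 and mutant groups Mef2c stood at 25.2 and 10.1 FPKM, gene-level values that cannot show a deleted exon.

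Outside the ribosomal protein, histone and mitochondrial genome families, the highest genes were housekeeping genes. Eef1a1, a translation elongation factor, stood at 1706 FPKM, Gapdh, the glycolytic enzyme, at 1436 FPKM, Ptma, prothymosin alpha, at 963 FPKM, Tuba1b at 959 FPKM and Hsp90ab1, a chaperone, at 901 FPKM. Next were Tuba1a at 818, Lars2, the mitochondrial leucyl-tRNA synthetase, at 808, Hnrnpa1 at 797, Actb at 722, Ftl1 at 664, Tuba1c at 661, Npm1 at 623, Pgam1 at 585, Eef2 at 556 and Ftl2 at 550 FPKM. Of the 100 highest genes, 80 share over 10% of their sequence words with other annotated genes, so their levels are uncertain. Among the 15 named here, Hsp90ab1, Lars2, Actb and Eef2 do not. The same limit applies to other genes named with a level or reads, namely Tcfap2a, Sfrp2, Ctgf, Cdkn1c, Gbx2, Alas2, Krt8, Krt5, Krt14, Hbb-b1, Hand2 and Shh, which also share over 10%. For Hes5, Pax6, Sox21, Irx3, Irx5 and Sox1 the share is not given here. Sharing was measured between annotated transcripts only. A low share, as for Lars2, therefore does not show that reads from other sequence are absent. The 100 highest held 27.3% of the summed FPKM.

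The PBS level was also the baseline of the ET-1 comparison, which the ranking did not use. With p-values of the authors' deposited table adjusted by Benjamini-Hochberg over 15395 genes, 60 genes were higher with ET-1 (0.39%) and 22 were lower (0.143%), in all 0.533%. Of 768 tested genes of the lists and families, 18 were higher and 3 were lower, which is 2.73%. The lists were drawn up with these results known, so nothing is read from that share. All 5 crest markers rose. Benjamini-Hochberg adjusted p, from the authors' deposited table, was 5.44e-12 for Ets1, 0.000482 for Sox10, 0.00223 for Ngfr, 0.00450 for Erbb3 and 0.0415 for Tcfap2b.

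The 18 genes of the lists and families that rose had baseline ranks from 1288 to 11050; the other genes that rose are not described here. Of these 18, the highest at baseline were Sox10, Cyr61 at rank 1376, Ngfr, Cdh6 at rank 2494 and Zeb2 at rank 2546. Ctgf, a matricellular relative of Cyr61, began at rank 2605 and Tpm1 at rank 3365. Mef2c lay near the middle of the ranking, and Col5a1, a fibrillar collagen, at rank 6998 and Pcdh1, a protocadherin, at rank 7131 lay below it. The lowest of the 18 were the immediate early nuclear receptors Nr4a3 (rank 8231) and Nr4a1 (rank 8668), then Gfra3, which binds artemin (rank 9387), Plxna4, a semaphorin receptor (rank 9497), and Tgfbr2, a TGF-beta receptor, at 0.655 FPKM (rank 11050). Gfra3 began 4.10 times lower than Gfra1 (3.31 to 5.13), and in the ET-1 group the ratio was 1.44.

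Of the 22 genes that fell, those in the lists and families were Dcx, the microtubule protein of young neurons, Gli1, a target and effector of hedgehog signalling, and Afp, a plasma protein of yolk sac endoderm. Their baselines were 8.17 FPKM (7.83 to 8.51), 4.83 FPKM (4.44 to 5.24) and 3.12 FPKM (2.76 to 3.52). Adjusted p, by Benjamini-Hochberg from the authors' deposited table, was 0.000629 for Dcx, 0.00537 for Gli1 and 0.0133 for Afp. In the mutant group Dcx stood at 8.77 FPKM, near its baseline, whereas Gli1 at 1.72 FPKM and Afp at 0.180 FPKM were below theirs. Dcx belongs to the sensory neuron list. That list's sums were 215, 163 and 201 FPKM in the PBS, ET-1 and mutant groups. Its median log2 fold with ET-1 was -0.45, against 0.01 over all genes tested. The crest transcription factor list summed to 454, 530 and 606 FPKM in the same groups, with a median log2 fold with ET-1 of 0.17. Called with ET-1 were 1 of 16 tested sensory genes and 4 of 22 crest factors, against 0.533% of all genes tested. Both lists were drawn up with earlier results known, so nothing is read from these sums, folds and counts. The part that a different mix of sorted cells took in these differences was not tested.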

How the data were processed

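RNA was measured in sorted neural crest cells, in 3 groups of 3 samples. Per the labels' protocols, RNA was extracted with a Qiagen RNeasy Micro kit, amplified with a NuGEN Ovation kit and made into barcoded libraries with a NuGEN Encore kit. The submitters' processing notes name Cuffdiff, Cufflinks 1.3.0, TopHat 1.3.1 and the mm9 build. Per the file headers, the authors deposited 1 FPKM value per gene and group and a p-value for ET-1 against PBS. How samples were combined, and which test gave the deposited p-values, was not stated in the sources used here. The labels do not say whether samples came from separate embryos. The number of columns of other samples was 0.

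The planned test assumed that only group values might be given, and this was the case. Benjamini-Hochberg adjustment of the p-values ran over 15395 genes, those with FPKM in both wild-type groups that reached 1 FPKM in either of them, and an adjusted p under 0.05 was called. Rose and fell refer to these calls. Log2 folds compare FPKM + 1 between groups and understate changes of low genes. Protein-coding genes were found by matching gene IDs to GENCODE M21 (28692 matched, 4803 did not). Names of the clone type were left out. Transcription factors, receptors and ligands were found by symbol patterns.

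Depth was found as the value that makes FPKM of single-exon genes whole reads, within 0.02 for 92.5% of 1299 genes with PBS. Reads were recovered for 17854 of 17856 genes, of which 185 were given the annotated exon length. Recovered PBS reads summed to 135% of the depth, so reads may be counted in several genes or lengths may be too long, and the intervals are approximate. The largest wild-type sum in whole-number rows was 19. In FPKM rows the 1% quantile of the wild-type sum of recovered reads was 20 and the smallest was 2. The whole-number rows are therefore not split off by a clean cutoff in recovered reads. A count of 0 was taken to allow 3 reads. Sequence sharing is the share of 50-base words of a gene's GENCODE M21 transcripts found in another gene, called over 10%. Promoters are from RefSeq, GRCm38.p6. File coordinates are mm9. Recovery of depths, lengths and adjusted p-values was tested on simulated data. Work was done in Python 3.11.15 with pandas 2.3.3, numpy 2.4.6 and scipy 1.17.1.

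Named genes were the 5 markers, the highest 15 genes outside 3 abundant families, the highest 12 transcription factors, 10 receptors, 10 ligands and 5 cadherins and integrins, the 4 highest of each list, defining members not given as FPKM, called members, and Hox genes by group. Other genes named were chosen after their values were seen. Some genes that the rule names are not reported here. The members and lists were chosen with earlier results of these data known. The dorsal, ventral and spinal neuron lists, the paralogue families, the sequence-sharing limit, the promoter bins, the 4 promoters printed and the details of read recovery were chosen after values were seen; the estimate of depth was revised until simulated depths were recovered. Alternatives were other detection levels, rescaled FPKM, other filters and another pseudocount.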

Additional observations from a re-analysis of the deposited data

How the results depend on the processing

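The 5 crest markers and the other called genes of the lists kept their direction and stayed called with no filter, among protein-coding named genes alone and, where they had 5 FPKM in a wild-type group, with that filter. Gli1, Afp and Tgfbr2 were under 5 FPKM in both and were not tested there. Counts of list members at or above the detection level moved for lists near 1 FPKM. At 0.5 FPKM the count was 14 for arch factors, 4 for brain factors, 2 for endothelial genes and 4 for macrophage genes. At 2 FPKM it was 0 for endothelial, 1 for cardiac, 1 for epithelial and 2 for mesoderm genes. With FPKM rescaled to a common total, as in TPM, it was 15 for arch factors, 5 for melanoblast, 4 for brain, 6 for endothelial, 4 for macrophage, 7 for epithelial, 5 for yolk sac and 5 for germ cell genes. Rescaling raised every level by construction, since the summed FPKM was below that total. Lower calls with ET-1 came to 10 when protein-coding named genes alone were adjusted, against 22. Genes of other kinds could not be called in that setting, where higher calls came to 56 against 60. Other counts stayed within 1.5 times of the reported ones, as did higher calls (55 to 60 against 60). No paired analysis was possible because the table gives 1 value per group and the labels share no number between groups; leaving out a sample was not run for the same reason. Intervals do not hold the spread between samples. Genes under 1 FPKM can rest on few reads, but not all do: with PBS, Hoxd10 had 18 reads and Tgfbr2 had 114.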

Other observations

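Gene families outside the comparisons took a large part of the PBS values. Of the summed FPKM of protein-coding named genes, 78 cytosolic ribosomal protein genes held 14.9%, 13 protein genes of the mitochondrial genome held 5.13% and 49 histone cluster genes held 3.12%, whereas 142 receptors held 0.643%, 200 ligands 0.475% and 38 Hox genes 0.291%. Members of the ribosomal and histone families share sequence with copies, so single levels among them are uncertain. Among 8 germ cell and pluripotency genes, Sall4, a zinc-finger factor of early embryonic cells, stood at 21.1 FPKM and Lin28, an RNA-binding protein that blocks let-7 maturation, at 15.7 FPKM, while Pou5f1 stood at 0.495 FPKM, Nanog at 0.436 FPKM, and Dppa3, Dazl and Zfp42 had 0 reads. With ET-1, Sall4 stood at 26.1 FPKM and Lin28 at 17.7 FPKM, and neither was called.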
